A study of Mus musculus with 4 samples.

Results

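The CCT complex, also called TRiC, is the chaperonin of the cytosol, a barrel of stacked rings in which 8 different subunits, each the product of its own gene, take fixed places. It encloses newly made proteins and uses ATP to fold them, and actin and tubulin are the clients it is best known for. Each ring needs every subunit, and the same barrel folds other clients such as G protein beta subunits. The 8 subunit genes Tcp1 (the alpha subunit, also called Cct1), Cct2, Cct3, Cct4, Cct5, Cct6a, Cct7 and Cct8 (beta to theta) were taken here by their names on the array, out of 22803 genes named there. Each was measured by 1 probe, so that no gene had a second probe to set beside it.

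All mice were C57BL/6J males of 8 to 12 weeks, and neither group is described as carrying a transgene or a targeted allele. In the fasted group (4 livers) food was removed for 24 h, and in the re-fed group (4 livers) the same 24 h fast was followed by 2 h with food, so both groups had been fasted and no liver came from a mouse fed throughout. The 8 livers were hybridised in random pairs, 1 fasted and 1 re-fed liver on each of 4 two-colour arrays, in order to find transcripts that differ between the fasted and the re-fed state. The fasted liver carried the red dye Cy5 on arrays 1 and 2 and the green dye Cy3 on arrays 3 and 4. Values are log2 ratios of fasted over re-fed liver, so a negative value is a lower signal in the fasted liver, and an error is the SD over the arrays (n = 4). A gene is called "lower" or "higher" below where the adjusted p of limma, which moderates each probe's variance with that of all probes, was under 0.10, and "called" where the change was also at least 1.5-fold (0.585 on the log2 scale). The array's own measurement is relative RNA in bulk tissue, in which fewer cells of a type and less RNA per cell cannot be told apart.

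The probes of the 3 genes that were lower in fasted liver are shown first, because each ratio rests on the hybridisation of 1 such 60-base sequence. Their positions are those of the array files in the mm9 build: chromosome 3, 88124479 to 88124538 for Cct3, chromosome 6, 85417773 to 85418099 for Cct7, and chromosome 17, 13116096 to 13116155 for Tcp1. The span given for Cct7 covers 327 bases for a 60-base probe. The exon each probe lies in was not looked up, since the gene table used here is of another build.
Cct3 probe: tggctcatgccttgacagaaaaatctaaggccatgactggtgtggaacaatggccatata
Cct7 probe: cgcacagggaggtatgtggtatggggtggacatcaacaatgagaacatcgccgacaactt
Tcp1 probe: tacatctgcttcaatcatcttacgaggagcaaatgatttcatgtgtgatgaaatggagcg

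All 8 subunit genes had a mean signal below 0 in fasted liver relative to re-fed liver, by small amounts, and 3 of them, Cct3, Cct7 and Tcp1, were lower at the adjusted p limit of limma. Their changes were below 1.5-fold, and 0 of 8 genes were called lower or higher by limma. At an unadjusted p under 0.05 in limma 4 of 8 genes were below 0, as were 11.8% of all 19707 tested probes, and the rebuilt SAM test of the study's methods called 0. For comparison, 2.08% of 19707 tested probes were called lower and 1.7% were called higher. Without the fold limit, 6.17% of the tested probes were lower and 4.74% were higher, against 3 and 0 of the 8 subunit genes. The median of the 8 genes was -0.24, that of all tested probes was -0.001.

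**Figure D1:**
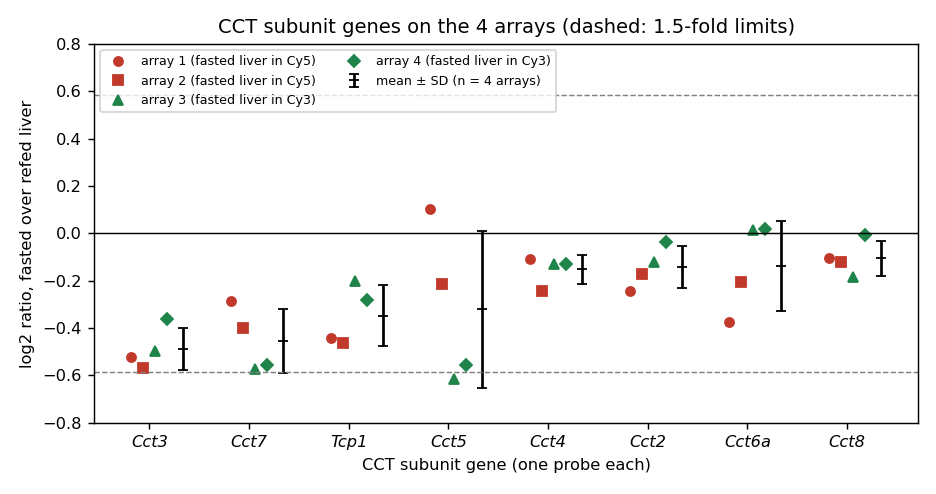
Log2 ratio of fasted over re-fed liver (vertical axis) for each CCT subunit gene (horizontal axis) on the 4 arrays, coloured by the dye of the fasted liver (red Cy5, green Cy3), with the mean and SD over arrays in black and the 1.5-fold limits dashed. All 4 points lie below 0 for 6 of the 8 genes, and Cct5 and Cct6a each have points on both sides of 0.

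Cct3 encodes the gamma subunit. Its ratios were -0.52, -0.57, -0.50 and -0.36 on arrays 1 to 4, a mean of -0.49 ± 0.09 (adjusted p = 0.0205 in limma). Its normalized intensities were 879, 1062, 983 and 1030 in the fasted livers of arrays 1 to 4 and 1263, 1576, 1387 and 1322 in the re-fed livers. Every fasted liver lay below every re-fed liver, and the re-fed signal was 1.40-fold the fasted signal.

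Cct7, the eta subunit, had ratios of -0.29, -0.40, -0.57 and -0.56, a mean of -0.45 ± 0.14 (adjusted p = 0.032 in limma). Its intensities were 2625, 2191, 1965 and 2199 in the fasted livers and 3204, 2894, 2923 and 3234 in the re-fed livers. The fasted and re-fed livers again did not overlap, with a 1.37-fold difference. Such separation, with all 4 fasted levels below all 4 re-fed levels, was seen for Cct3 and Cct7, 2 of 8 genes, and for 7.8% of all tested probes.

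Tcp1, which encodes the alpha subunit and gave the complex one of its names, had ratios of -0.44, -0.46, -0.20 and -0.28, a mean of -0.35 ± 0.13 (adjusted p = 0.0607 in limma). Its intensities were 1669, 1640, 1370 and 1362 in the fasted livers and 2268, 2263, 1574 and 1656 in the re-fed livers. The fasted liver was the lower one on each array, but the 2 groups overlapped, because both livers of arrays 3 and 4 were dimmer than their counterparts on arrays 1 and 2.

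**Figure D2:**
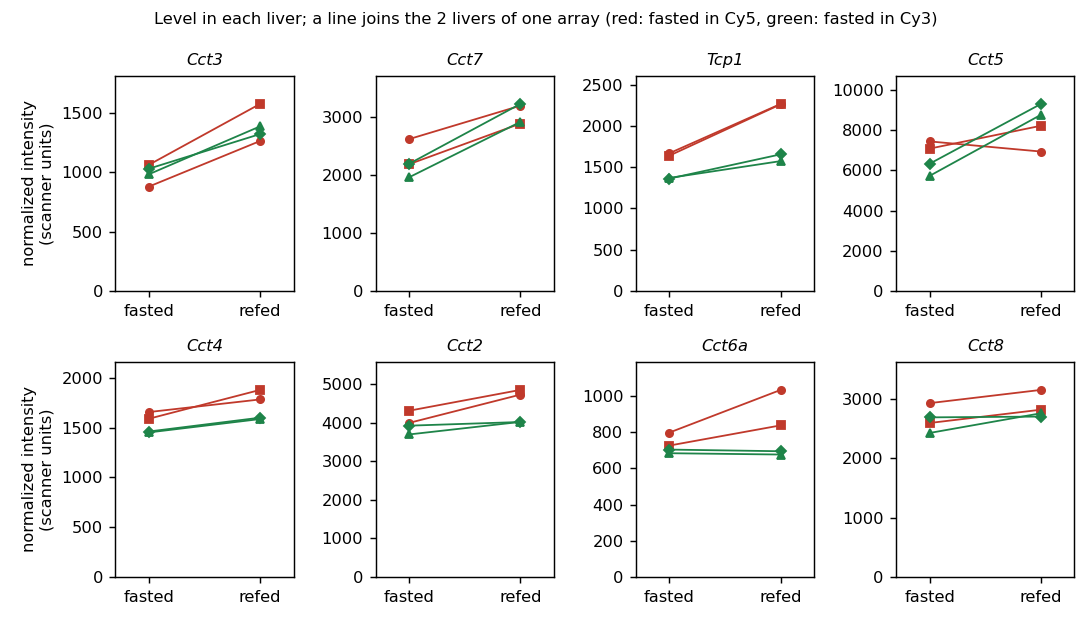
Normalized intensity in scanner units (vertical axes, each from 0 and on its own scale) of each CCT subunit gene in the fasted and re-fed liver, with a line joining the livers of one array. For Cct3 and Cct7 all 4 fasted livers lie below all 4 re-fed livers, for the other 6 genes the groups overlap.

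Cct5, the epsilon subunit, differed most between arrays. Its ratios were 0.10, -0.21, -0.61 and -0.56, a mean of -0.32 ± 0.33 (adjusted p = 0.228 in limma). The fasted livers had intensities of 7443, 7085, 5730 and 6334 and the re-fed livers had 6938, 8223, 8772 and 9311, so that array 1 ran opposite to the other arrays. The mean was -0.06 on the arrays with the fasted liver in Cy5 and -0.59 on those with it in Cy3. A dye effect, the part of the ratio that follows the dye orientation, was estimated at 0.26 for this probe (adjusted p = 0.0867 in limma). Each orientation holds 2 arrays with livers of their own, so the dye and differences between these pairs of livers cannot be told apart. Cct5 was the only one of the 8 genes with such an effect at this limit, which 14.8% of all tested probes reached. With a dye term in the model Cct5 was lower too, with the same mean and an adjusted p of 0.0324. That model placed 4 of the 8 genes at the limit and called 0, while 13.9% of all tested probes were lower in it at any fold.

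The other subunit genes had smaller ratios, none of which passed the test. Cct4, the delta subunit, had -0.11, -0.24, -0.13 and -0.13, a mean of -0.15 ± 0.06 (adjusted p = 0.279 in limma). Cct2, the beta subunit, had -0.24, -0.17, -0.12 and -0.03, a mean of -0.14 ± 0.09 (adjusted p = 0.331 in limma). These genes and Cct8 stood below 0 on every array, as did Cct3, Cct7 and Tcp1. That makes 6 of 8 genes, where 16% of all tested probes had a ratio below 0 on all 4 arrays.

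Cct8, the theta subunit, had -0.11, -0.12, -0.19 and -0.01, a mean of -0.10 ± 0.07 (adjusted p = 0.47 in limma). Cct6a, the zeta subunit expressed widely (a second zeta gene, Cct6b, is known from testis), had -0.37, -0.21, 0.02 and 0.02, a mean of -0.14 ± 0.19 (adjusted p = 0.471 in limma). Its ratios were lower on arrays 1 and 2 than on arrays 3 and 4, whereas those of Cct5 were lower on arrays 3 and 4. The ratios of all tested probes also correlated more within a dye orientation (r = 0.664 and 0.752) than between orientations (0.223 to 0.396), across probes that are not independent.

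The intervals of the 5 genes that did not pass the test do not show that their levels were equal in the 2 states. The 95% interval of the mean in limma reached from -0.32 to 0.02 for Cct4, from -0.32 to 0.03 for Cct2, from -0.36 to 0.09 for Cct6a and from -0.28 to 0.07 for Cct8, so that a decrease as large as the 1.5-fold limit lay outside each of them. The interval of Cct5 reached from -0.64 to -0.002 and included the limit of -0.585. Those of Cct3 (-0.66 to -0.31) and Cct7 (-0.65 to -0.26) included this limit too, and that of Tcp1 (-0.54 to -0.15) did not.

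**Figure D3:**
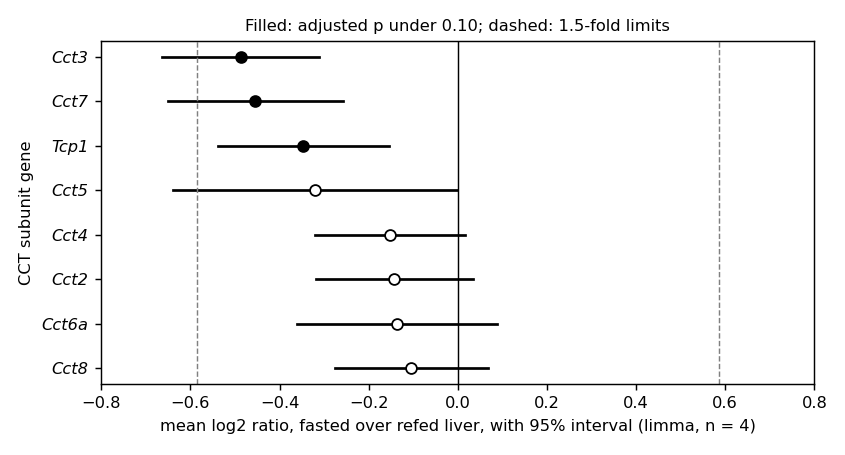
Mean log2 ratio of fasted over re-fed liver with its 95% interval from limma (horizontal axis, n = 4 arrays) for each CCT subunit gene, filled where the adjusted p was under 0.10, with the 1.5-fold limits dashed. The means run from -0.49 for Cct3 to -0.10 for Cct8, and 4 intervals, those of Cct4, Cct2, Cct6a and Cct8, include 0.

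The subunits were also compared with each other on the same array, over 8 pairs: the 7 neighbours in the order of their means, and both ends. The mean difference between neighbours was smaller than its SD over the arrays in each of the 7 pairs, and the sorting itself makes these differences small. Cct3 lay below Cct8 by 0.42, 0.45, 0.31 and 0.35 on arrays 1 to 4, a mean difference of -0.38 ± 0.06. This had the same sign on 4 of 4 arrays. Its exact two-sided sign-flip p was 0.125, the smallest that this test can give with 4 arrays. Since the order was taken from the same ratios, all 8 differences are descriptions.

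Array 3 stood apart in its pancreatic markers, and arrays 1 and 3 in their globin genes. Of 10 markers of pancreatic acinar cells, whose product is digestive enzymes, 3 were tested, and the median ratio of the 10 was -3.67 on array 3 and between -0.04 and 0.02 on the other arrays. Their summed intensity ranged from 960 to 33673 in re-fed livers and from 942 to 1867 in fasted livers. Of the 10, 7 were not well above background on all arrays of either group. Blood markers, of which 4 of 5 were tested, summed to 25843 to 121577 in fasted and 15371 to 34986 in re-fed livers. The ratios of the globin gene Hba-a1 were 2.45, -0.26, 2.48 and 0.34 on arrays 1 to 4 and those of Hbb-b1 were 2.35, -0.27, 2.37 and 0.23, high on arrays 1 and 3 alike. All 10 hepatocyte markers were well above background in every liver, with median ratios of 0.34, 0.38, 0.03 and -0.12 on arrays 1 to 4, and 1 of them, Tat, an enzyme of tyrosine breakdown, was called higher in fasted liver (0.84, adjusted p = 0.0451 in limma). Of 5 tested markers of endothelial, stellate and biliary cells, 1 was higher, the endothelial receptor Stab2 (0.35, adjusted p = 0.0479 in limma). The median of the 5 was 0.11, and 2 had means below 0, Krt19 (-0.40) and Lrat (-0.36). In addition, the fasting-induced genes G6pc, Pck1 and Ppargc1a were called higher in fasted liver (3.60, 2.66 and 1.20). Without array 3 the 8 genes had a median of -0.20, and Cct3 (-0.48, adjusted p = 0.105), Cct7 (-0.42, adjusted p = 0.149) and Tcp1 (-0.40, adjusted p = 0.149) had similar means but did not pass the test in limma on 3 arrays. The part of these cell types in the ratios was not tested.

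Which genes passed depended on single arrays. Without array 1 the genes at the limit were Cct3, Cct7 and Cct5 (-0.46, adjusted p = 0.0889 in limma). Without array 2 or without array 4 only Cct3 passed, with adjusted p-values of 0.0873 and 0.0576. Tcp1 did not pass with any array left out (adjusted p = 0.14 to 0.185). With the background model fitted on all spots, including those with extreme local background on arrays 3 and 4, 0 of the 8 genes passed (Cct3 at -0.32, adjusted p = 0.558; Cct7 at -0.32, adjusted p = 0.253 in limma). The mean of Cct6a rested largely on array 1 and was -0.06 without it. All 8 means stayed below 0 in each of these settings.

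Among the genes of proteins that hand clients to CCT or regulate it, Pdcl was the one at the adjusted p limit. Prefoldin, a hexamer that passes unfolded actin and tubulin to CCT, had 6 of 6 genes tested and 0 at the limit in either direction, with all 6 means below 0, from -0.28 (Pfdn4, adjusted p = 0.138 in limma) to -0.03 (Vbp1) and a median of -0.10. The phosducin-like proteins and Txndc9 bind CCT and modulate its work. The 3 tested genes had a median of -0.33, which was the mean of Txndc9 (-0.33 ± 0.45, adjusted p = 0.324 in limma). The other tested probe of Txndc9 had a mean of -0.21, and Pdcl3 had 0.02. Only Pdcl, a cofactor in the assembly of G protein beta and gamma subunits, was lower. It had -0.54, -0.47, -0.69 and -0.59 on arrays 1 to 4 (mean -0.57 ± 0.09, adjusted p = 0.0142 in limma). Its other probe had a mean of -0.43 (adjusted p = 0.0283).

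Cct6b and the chaperonin-like proteins of Bardet-Biedl syndrome resemble CCT subunits in sequence. Of the 3 tested, Mkks was called lower with -0.54, -0.50, -0.67 and -0.87 (mean -0.64 ± 0.17, adjusted p = 0.0163 in limma), whereas Bbs10 and Cct6b had means of -0.02 and 0.11. Bbs12 was not well above background in either group on all arrays and was not tested. Of the tubulin cofactors, which take over tubulin after CCT, 1 of 5 was lower. It was Tbcb, a cofactor of alpha-tubulin (mean -0.57 ± 0.10, adjusted p = 0.0155 in limma), and the median of the 5 was -0.03. None of the genes of these lists was called higher.

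The main clients of CCT, the actins and tubulins, were mostly called lower in fasted liver, 7 of 12 genes with 0 higher, and their median was -0.78 beside -0.24 for the subunits. Tuba4a had -1.06, -0.84, -0.89 and -0.95 (mean -0.93 ± 0.09), and Tubb4b had -1.25, -0.92, -0.84 and -1.13 (mean -1.03 ± 0.19). Tuba1b had a mean of -1.18 ± 0.22 at its brightest probe and -0.60 ± 0.18 at another. Actb, the cytoplasmic beta-actin, had a mean of -0.64 ± 0.18 (adjusted p = 0.0177 in limma). Actg1, the cytoplasmic gamma-actin, was not called by its brightest probe (-1.46 ± 1.38, adjusted p = 0.143), but 3 of its 5 probes were called lower, with means of -1.33, -1.21 and -0.79. Tubb2b had a mean of 0.07 (adjusted p = 0.754 in limma). Tubulin and actin genes are close copies of each other, so that a probe may also bind RNA of another copy.

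Other proteins known to need CCT showed no common direction. Of 10 tested genes Mlst8, a subunit of the mTOR complexes, was lower with -0.45, -0.58, -0.48 and -0.54 (mean -0.51 ± 0.06, adjusted p = 0.0163 in limma). Stat3 was higher at its brightest probe with a mean of 0.57 ± 0.34 (adjusted p = 0.0659) and had a mean of 0.16 (adjusted p = 0.287) at the other. Gnb1 and Gnb2, the G protein beta subunits tested, had means of -0.15 and 0.11, and the median of the list was -0.11.

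**Figure D4:**
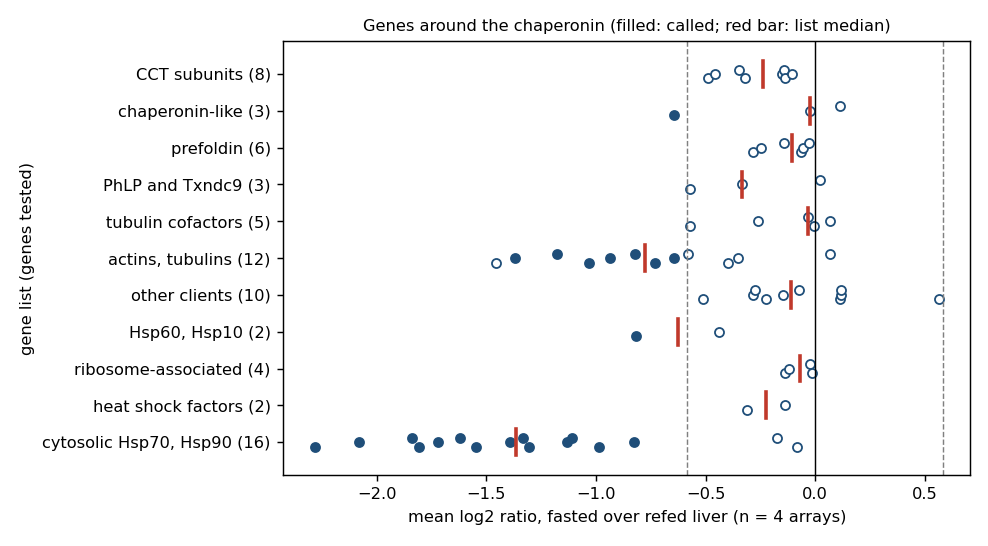
Mean log2 ratio of fasted over re-fed liver (horizontal axis, n = 4 arrays) of the brightest tested probe of each gene in the lists around the chaperonin, with the number of genes tested in parentheses, filled where called and with the list median as a red bar. The 8 CCT genes lie between -0.49 and -0.10 with no filled point, and 14 of the 16 cytosolic Hsp70 and Hsp90 genes are filled.

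The other chaperone systems had medians above and below that of CCT, and differences between lists were not tested. Hsp60 (Hspd1) and Hsp10 (Hspe1) form the chaperonin of mitochondria. Hspe1 was called lower with -0.38, -0.61, -0.97 and -1.32 (mean -0.82 ± 0.41, adjusted p = 0.0379 in limma), and Hspd1 had 0.26, 0.10, -0.88 and -1.22 (mean -0.44 ± 0.73, adjusted p = 0.4), above 0 on arrays 1 and 2 and below 0 on arrays 3 and 4. The cytosolic Hsp70 and Hsp90 machines with their co-chaperones, many of them known heat-shock genes, had 14 of 16 tested genes called lower and a median of -1.36. Among them were Hsph1 (mean -2.28 ± 0.35), Hsp90aa1 (-2.08 ± 0.65) and Stip1, which links Hsp70 to Hsp90 (-1.31 ± 0.06). The list median was -1.17, -1.09, -1.58 and -1.81 on arrays 1 to 4, and that of CCT was -0.27, -0.23, -0.19 and -0.21.

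The chaperones that meet proteins on the ribosome had 0 of 4 genes at the limit and a median of -0.07. Of the heat shock factors, Hsf1, the main activator of heat-shock genes, was lower by a small amount (mean -0.31 ± 0.10, adjusted p = 0.0674 in limma), and Hsf2 had a mean of -0.14 (adjusted p = 0.358).

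The genes whose ratios were most like the average of the 8 subunits on the 4 arrays, by root mean square difference over 13007 genes, were Plekha7 (0.00979), Septin8 (0.0209), Smim14 (0.0298), Zfp143 (0.0305) and Gm14308 (0.0327). With only 4 arrays and ratios this near to 0, many genes lie close. The subunits themselves differed from their average by 0.123 (Cct4) to 0.29 (Cct5).

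Promoters are shown for the 3 genes that were lower and for Cct6a, which was not, as the stretch from 250 bases before to 50 bases after the RefSeq start in the GRCm38.p6 build. Promoters were found for 7 of the 8 genes, 9 in all, with 2 each for Cct2 and Cct5. Both strands were searched for CCAAT, for the heat shock element cores GAANNTTC and TTCNNGAA, for TGACG, a short form of the cAMP response element (CRE), for the full CRE TGACGTCA (which contains the short form) and for TATAAA. Capitals mark CCAAT or its complement ATTGG, the short CRE and the heat shock element core. The Cct3 promoter is chr3:88296885-88297184 on the plus strand, that of Cct7 chr6:85451255-85451554 on the plus strand, that of Tcp1 chr17:12916079-12916378 on the plus strand and that of Cct6a chr5:129787106-129787405 on the plus strand.
Cct3 promoter: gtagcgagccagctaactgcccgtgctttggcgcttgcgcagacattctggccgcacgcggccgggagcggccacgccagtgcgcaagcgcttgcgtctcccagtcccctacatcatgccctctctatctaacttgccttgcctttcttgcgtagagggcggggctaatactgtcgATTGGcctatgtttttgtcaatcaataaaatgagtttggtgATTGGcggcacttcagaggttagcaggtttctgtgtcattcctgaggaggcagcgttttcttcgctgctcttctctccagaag
Cct7 promoter: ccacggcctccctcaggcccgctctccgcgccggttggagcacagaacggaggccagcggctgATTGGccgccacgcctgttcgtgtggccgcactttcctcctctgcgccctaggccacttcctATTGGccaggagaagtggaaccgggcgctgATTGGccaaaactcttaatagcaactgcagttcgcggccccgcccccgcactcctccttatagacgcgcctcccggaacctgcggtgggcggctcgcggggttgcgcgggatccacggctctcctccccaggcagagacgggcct
Tcp1 promoter: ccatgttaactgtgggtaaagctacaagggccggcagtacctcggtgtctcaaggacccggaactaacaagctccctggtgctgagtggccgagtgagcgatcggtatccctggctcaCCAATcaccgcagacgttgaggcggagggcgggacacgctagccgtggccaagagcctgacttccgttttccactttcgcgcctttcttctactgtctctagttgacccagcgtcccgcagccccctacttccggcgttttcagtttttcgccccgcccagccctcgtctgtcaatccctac
Cct6a promoter: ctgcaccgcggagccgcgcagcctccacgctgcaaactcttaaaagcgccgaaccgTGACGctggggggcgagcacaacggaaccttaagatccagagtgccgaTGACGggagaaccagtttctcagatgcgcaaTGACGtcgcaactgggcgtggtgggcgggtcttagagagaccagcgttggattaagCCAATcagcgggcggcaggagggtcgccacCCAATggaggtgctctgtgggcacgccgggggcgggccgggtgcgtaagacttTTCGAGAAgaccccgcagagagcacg

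CCAAT, the box that the factor NF-Y binds, was found in 4 of the 9 promoters, those of Cct3, Cct7, Tcp1 and Cct6a, and in 37.4% of 32851 promoters of all genes. Cct7 had 3 matches, Cct3 and Cct6a had 2 each and Tcp1 had 1. A heat shock element core was found in 3 of 9 promoters, as GAAGTTTC in Cct2, TTCCAGAA in Cct5 and TTCGAGAA in Cct6a, in 10 of 18 promoters of the cytosolic Hsp70 and Hsp90 genes and in 15.1% of all promoters. None of the 3 genes that were lower had a heat shock element core in its window. The short CRE, part of the site that the factor CREB binds, was found in Cct6a alone among the 9 promoters, at 3 places, and in 20.8% of all promoters. The full CRE, as an exact match, was found in 0 of the 9 promoters and in 1.79% of all, and TATAAA in 0 and 13.6%. The study's own full CRE allowed 1 mismatch, which was not searched for here. A match is a description of the letters and says nothing of binding.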

How the data were processed

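Total RNA of 4 fasted and 4 re-fed mouse livers, 200 ng each, was labelled with Cy3 or Cy5 and hybridised to 4 two-colour Agilent arrays. The deposited scanner files hold spot intensity with local background, as extracted by Agilent Feature Extraction (10.10.1.1 per the file headers). The authors also deposited log2 ratios normalized by loess in limma, used here as an alternative. They correlated with the ratios computed here at r = 0.975 to 0.992 over kept probes.

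In limma 3.58.1 (R 4.3.3), spots with a local background over 3 times the array median were left out (55 of 177588), median signals were corrected by normexp (offset 50), and ratios were normalized by loess. Flagged and control spots were removed and spots of a probe averaged. A probe was kept if the fasted or the re-fed channel was well above background on every array (19707 of 39429). The 4 ratios were fitted with lmFit and eBayes (two-sided tests), and p-values of all kept probes were adjusted by Benjamini-Hochberg. The other settings for the count of CCT genes without the fold limit were chosen after seeing the data. Levels per liver came from quantile-normalized average intensities and the ratios. A gene of several probes entered by its brightest. The array number limits the precision, and each replicate is 1 pair of livers from separate mice. The limit on local background, used because a few spots on replicates 3 and 4 had backgrounds up to 443380, was known from earlier results of these data. The members and gene lists were also chosen with earlier results of these data known. The genes named are all members, genes of the lists and the 5 genes of nearest ratios. Promoters came from RefSeq (GRCm38.p6). The steps were tested on simulated data. Of changes of 0.5 on the log2 scale, 27% were found at the adjusted p limit and 3% were called. Of those calls 33.3% were false. The model with a dye term found 0% of the changes of 0.5 at the limit. Of changes of 1.5, 94.5% were called. Alternatives covered background, source of the values, normalization, filters, dye, test, thresholds, probe choice and leaving out each replicate.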

Additional observations from a re-analysis of the deposited data

Results flagged for a closer look

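Of 26 values examined over the 4 arrays, 3 had 1 array far from the others, and none of the 8 CCT genes was among them. Chance alone gives this for about 1 in 20 such values. The median ratio of the pancreatic acinar markers was -3.67 on replicate 3 and -0.04 to 0.02 on the others. The median ratio of 8 proliferation genes, of which 4 were tested, was 0.402 on replicate 3 and 0.0152 to 0.0424 on the others. The untested genes were near background, and the median of the 4 tested genes was 0.165, 0.151, 0.554 and 0.0564 on replicates 1 to 4. The median of the fasting-induced genes G6pc, Pck1 and Ppargc1a was 3.72 on replicate 2 and 2.27 to 2.35 on the others. On each array this median was the ratio of Pck1, so the flag rests on that gene alone.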

How the results depend on the processing

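The mean ratios of all 8 CCT genes stayed below 0 under each of 19 alternatives, and no result reversed. Some of these could not change the means: the dye term, separate channels, the other filters, ignored flags and the mean of all probes. In those, none of the 8 genes could reach the fold limit either. The number of CCT genes called lower was 0 under all alternatives except median centring in place of loess, which gave 2 (Cct3 at -0.61 and Cct7 at -0.60), and no fold limit, which gave 3. Under median centring the CCT median was -0.38 with the median of all probes at -0.06, 635 probes were called lower (410 in the main setting), and 26.6% of all calls were higher, against 45% in the main setting. With normexp on all spots the number of CCT genes at the adjusted p limit was 0, their median was -0.20, and 5 probes were called higher and 16 lower. On all probes, plain subtraction of the background gave 549 called higher and 714 called lower, Agilent's processed signals 685 and 903, and no fold limit 935 and 1215. Under plain subtraction 2 CCT genes were at the adjusted p limit, and Tcp1 had an adjusted p of 0.103 in limma. Leaving out 1 replicate each gave 0 to 3 CCT genes at the limit, 0 without replicate 3 and 1 each without replicate 2 or 4. It gave 211 to 414 probes called higher and 261 to 529 lower, the lowest without replicate 3. Fitting the channels separately, with no replicate block for the livers paired on an array, gave 0 CCT genes called lower and 2 at the limit. Tcp1 then had an adjusted p of 0.212 in limma, and the median of -0.24 is the same by construction. The cause of these shifts was not tested. Labels pair livers on arrays at random, and the 8 genes were well above background in each liver.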
